A study of Mus musculus with 9 samples.

Results

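Semaphorins are secreted or membrane-bound guidance proteins, and plexins and neuropilins are the receptors that bind them. The 31 protein-coding mouse genes examined here are the 20 semaphorins of classes 3 to 7 (ligands), the 9 plexins and the 2 neuropilins (11 receptors together). They were chosen by gene name from 20897 protein-coding genes with a counted transcript. Each gene was read by the transcript with the highest mean count over all 9 samples. All 31 passed the filter on low counts, which asked for 10 counts or more in 3 or more samples, and 26 of them had at least 10 counts in every sample.

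The samples were piriform cortex of wild type C57BL/6 mice, for which no treatment is given, and from which 3 layers had been cut out of fresh-frozen sections by laser capture. The labels give an age of 8 weeks and the study's methods 10 weeks. Each layer, known only by its letter A, B or C, has 3 replicates, and no source used here ties the letters to the anatomical layers I, II and III. Whether the replicates came from separate mice is not stated, so p-values measure only the spread between these samples, which may be technical.

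Class 3 semaphorins are secreted and mostly signal through a neuropilin, which binds the ligand, joined to a type A plexin, which carries the signal into the cell. Sema3e is an exception that binds Plxnd1 directly. Semaphorins of classes 4 to 7 are tethered to the membrane, and class 4 members such as Sema4d bind type B plexins, class 6 members bind type A plexins and Sema7a binds Plxnc1. In the developing cortex these pairs steer axons, dendrites and migrating neurons, and several persist in the adult brain, where they act on synapses, glia and vessels.

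Values are counts relative to the library size after TMM scaling (normalized CPM), and per kilobase of transcript where genes are compared with each other. Total counts ran from 23104306 to 76471683 per sample, and 3 counts, taken as the floor of detection, correspond to 0.0256 to 0.254 normalized CPM. The 31 genes together took 5268 to 48502 counts per sample, with the lowest total in layer A replicate 1. Transcripts of the mitochondrial genome took 72.6%, 67.2% and 56.4% of the counts in layer A, with 13.1%, 18.6% and 30.1% in layer B and 30.7%, 59.0% and 21.2% in layer C. Layer B replicate 3 stood apart from replicates 1 and 2 of its layer. Its level of Gad1, the enzyme that makes GABA, was 77.7 normalized CPM against 13.1 and 12.3. Calls that change without this library are given both ways, as are the passing differences that moved most, those of Sema3c, Sema3e and Sema3g from layer B.

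Of the 31 genes, 16 differed between layers A and B at an adjusted p under 0.05 (edgeR quasi-likelihood test, Benjamini-Hochberg over all 56416 tested transcripts). Of these, 12 were higher in layer A: Sema3b, Sema3c, Sema3d, Sema3e, Sema3g, Sema4g, Sema5a, Sema6d, Nrp1, Plxnb1, Plxnb2 and Plxnb3. The other 4 were lower in layer A: Sema3a, Sema4f, Plxna2 and Plxna4. Among all tested transcripts 10.7% were higher and 5.83% lower in layer A by the same rule. Among the highest transcripts of 13548 tested protein-coding genes, the closer match to how the 31 were read, the shares were 14.1% and 8.24%. The members' median log2 difference was 0.26, against -0.12 over all tested transcripts.

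Of the same 31 genes, 8 passed between layers A and C, all of which also passed against layer B. Sema3b, Sema3c, Sema3d and Plxnb1 were higher in layer A, and Sema3a, Sema4f, Plxna2 and Plxna4 were lower. The shares over all tested transcripts were 6.98% higher and 4.35% lower, and over the highest transcripts of protein-coding genes 10.1% and 5.93%. The median log2 difference was 0.33 for the members and -0.01 for all tested transcripts. Both comparisons use the same 3 layer A samples, so they are not independent of each other. Without layer B replicate 3 the counts were 16 against layer B and 11 against layer C. That fit gained Nrp2 and Plxnd1 and lost Sema4f and Plxnb2 against layer B, and it gained Sema3g, Plxna1 and Plxnb2 against layer C. Leaving out layer A replicate 1 lowered the counts to 7 and 4. Leaving out layer C replicate 1 left 2 genes against layer C, Sema3a and Plxnb1, and without layer A replicate 2 or layer C replicate 2 the count against layer C was 5.

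**Figure D1:**
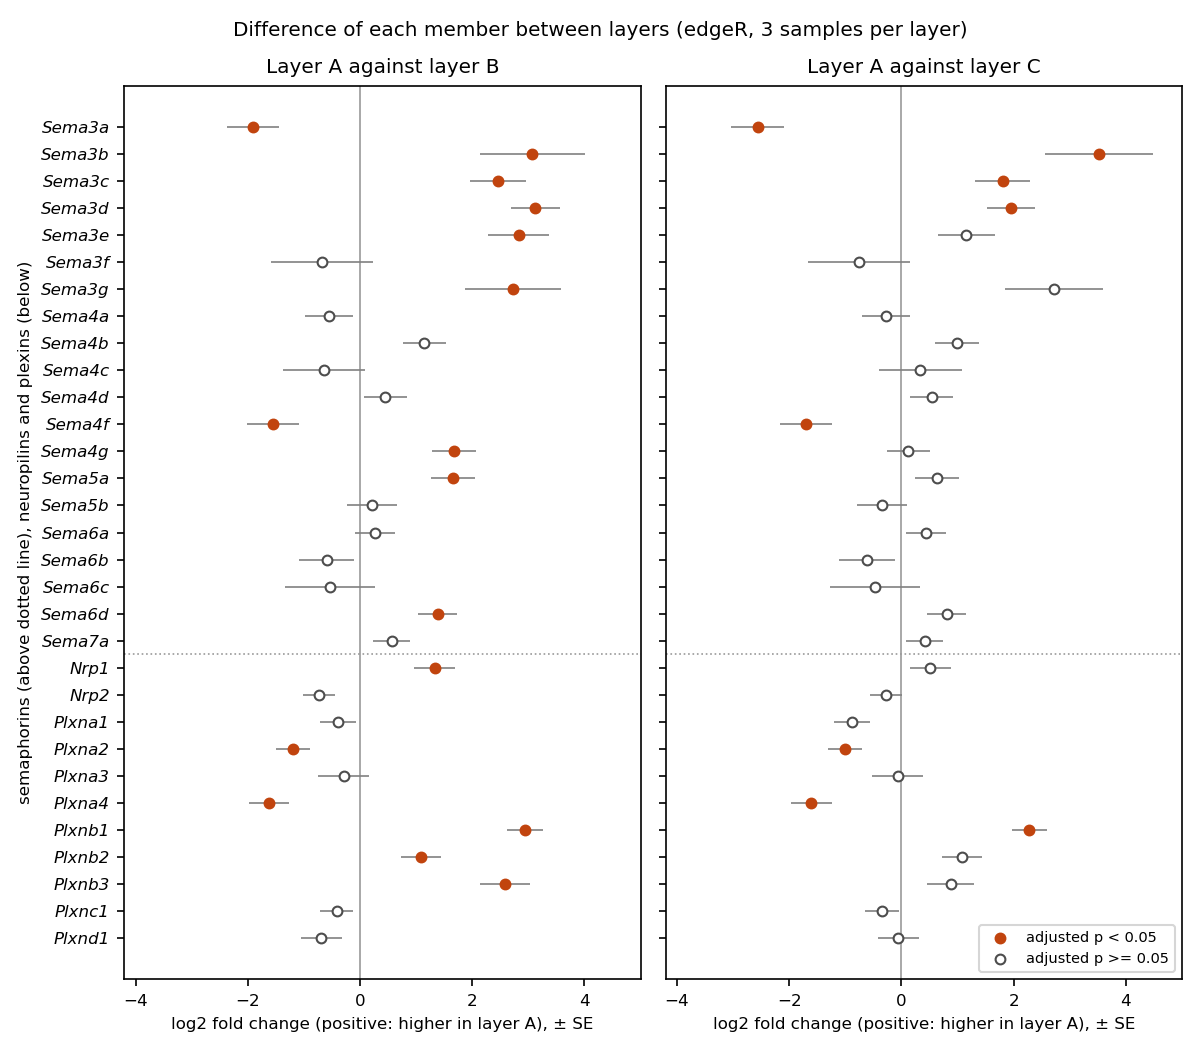
Log2 fold change of each of the 31 genes in layer A against layer B (left) and layer C (right), positive where layer A was higher, with the standard error as a bar (edgeR, 3 samples per layer). Filled points passed an adjusted p of 0.05, 16 on the left and 8 on the right, and the largest difference towards layer A was that of Sema3b against layer C, at 3.52.

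The starts of 5 genes that passed between layers A and B are printed to show what sequence lies before them. They are those whose RefSeq start (GRCm38.p6) lies within 100 bases of the counted transcript's start, with no annotated exon in the printed window. Each run is read 5′ to 3′ on the gene's strand and ends just before the counted transcript. Capitals mark the GC box GGGCGG and the CCAAT box, on either strand. Sema3e (chr5:14025026-14025275, plus strand), Sema3g (chr14:31217623-31217859, plus), Plxnb2 (chr15:89180789-89181038, minus) and Plxnb3 (chrX:73756853-73757089, plus) were higher in layer A, and Sema4f (chr6:82939770-82940019, minus) was lower.
Sema3e: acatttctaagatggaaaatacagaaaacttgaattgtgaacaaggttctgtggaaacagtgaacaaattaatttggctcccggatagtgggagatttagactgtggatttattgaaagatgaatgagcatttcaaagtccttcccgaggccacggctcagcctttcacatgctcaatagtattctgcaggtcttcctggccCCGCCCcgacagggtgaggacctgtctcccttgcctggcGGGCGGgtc
Sema3g: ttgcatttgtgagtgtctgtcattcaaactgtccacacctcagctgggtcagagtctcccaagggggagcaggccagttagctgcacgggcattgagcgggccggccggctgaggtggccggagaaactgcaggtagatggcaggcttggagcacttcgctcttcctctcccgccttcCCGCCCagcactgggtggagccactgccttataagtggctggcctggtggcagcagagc
Plxnb2: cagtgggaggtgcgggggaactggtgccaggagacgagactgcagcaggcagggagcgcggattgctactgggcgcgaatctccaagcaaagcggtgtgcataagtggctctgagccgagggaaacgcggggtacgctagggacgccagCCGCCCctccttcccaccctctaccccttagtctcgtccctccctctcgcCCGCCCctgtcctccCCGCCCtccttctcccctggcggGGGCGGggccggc
Plxnb3: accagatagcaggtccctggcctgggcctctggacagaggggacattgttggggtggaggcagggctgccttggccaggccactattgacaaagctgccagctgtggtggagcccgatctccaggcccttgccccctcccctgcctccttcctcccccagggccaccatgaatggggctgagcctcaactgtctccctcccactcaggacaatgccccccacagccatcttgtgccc
Sema4f: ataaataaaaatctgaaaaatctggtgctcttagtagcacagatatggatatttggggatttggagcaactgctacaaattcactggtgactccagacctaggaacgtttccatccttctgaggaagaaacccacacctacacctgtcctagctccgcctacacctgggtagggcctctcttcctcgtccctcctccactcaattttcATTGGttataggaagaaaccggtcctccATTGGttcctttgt

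Promoter windows of 250 bases were found for 26 of the 31 genes. The GC box, bound by Sp1-type factors, was in 8 of 11 windows of genes higher in layer A than layer B, in 1 of 3 of those lower, and in 10 of 12 of those that passed in neither direction. Some of these windows lie far from the counted transcript's start, by 43008 bases for Sema6d, 36990 for Sema4d and 2525 for Sema3a. Among the 19 windows whose RefSeq start lies within 100 bases of it, the counts were 5 of 6, 1 of 2 and 10 of 11. Of 32851 RefSeq promoters of the same length, 32.7% held it. The CCAAT box was in 4 of the 26 windows, against 33.8% of all promoters, and the TATA box TATAAA in 0 of the 26, against 12.4%. The median GC content of the windows was 65.2% for genes higher in layer A and 46% for those lower. For those that passed in neither direction it was 65.4%, against 52.4% over all promoters. The shares over all promoters are not matched for GC content, so no trait of these genes can be read from the contrast. Only the letters were searched, and they mark no site of binding.

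Class 3 held the most differences among the ligands: 6 of its 7 members passed between layers A and B, 5 of them higher in layer A. Sema3d, a secreted repellent also known from endothelial guidance, read 10.3, 6.01 and 7.36 normalized CPM in layer A, with 0.764, 0.577 and 1.35 in layer B and 1.69, 1.91 and 2.45 in layer C. The 3 layers did not overlap. The log2 difference was 3.13 ± 0.44 (SE, adjusted p = 0.000384) against layer B and 1.96 ± 0.42 (adjusted p = 0.00967) against layer C. Without layer C replicate 1 the latter had an adjusted p of 0.0718.

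Sema3c, an attractant for some cortical axons, was at 12.5, 11.2 and 11.5 normalized CPM in layer A, with 1.46, 1.22 and 3.71 in layer B and 2.65, 1.66 and 5.56 in layer C. Every layer A sample lay above all others, by a log2 difference of 2.46 ± 0.50 (SE, adjusted p = 0.00398) from layer B and 1.81 ± 0.49 (adjusted p = 0.0275) from layer C. Against layer C it missed the threshold when layer A replicate 1, 2 or 3 or layer C replicate 1 or 2 was left out, with adjusted p from 0.0579 to 0.142, and without layer C replicate 3 the difference was 2.45 (adjusted p = 0.0149). Its difference from layer B was 3.18 without layer B replicate 3 (adjusted p = 0.000325). Sema3e, the ligand of Plxnd1, read 7.96, 6.35 and 4.59 in layer A, with 0.494, 0.60 and 1.54 in layer B and 1.37, 2.74 and 4.28 in layer C. Layer A was higher than layer B by 2.83 ± 0.54 on the log2 scale (adjusted p = 0.00263), and the difference from layer C, 1.15 ± 0.51, did not pass (adjusted p = 0.173), although the samples did not overlap. The difference of Sema3e from layer B was 3.56 without layer B replicate 3 (adjusted p = 0.000318).

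Sema3b and Sema3g were rare. Sema3b, which signals through Nrp2, read 1.52, 0.534 and 1.5 normalized CPM in layer A (18, 8 and 60 counts), with 0, 0.208 and 0.208 in layer B and 0.147, 0 and 0.111 in layer C. At 0 counts the floor was 0.0674 normalized CPM in layer B replicate 1 and 0.191 in layer C replicate 2. The fitted log2 differences were 3.07 ± 0.93 (SE, adjusted p = 0.0339) and 3.52 ± 0.97 (adjusted p = 0.0283). Leaving out layer A replicate 1 or 3 gave adjusted p of 0.104 and 0.101 against layer B and 0.0895 and 0.0853 against layer C. Leaving out layer B replicate 1 or 2 gave 0.0820 and 0.0540, and leaving out layer C replicate 1, 2 or 3 gave 0.0957, 0.0726 and 0.0783. The transcript read for Sema3b is one annotated as subject to nonsense-mediated decay, and its coding counterpart had a log2 difference of 3.20 from layer B (adjusted p = 0.0273).

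Sema3g, known from vessels, read 3.73, 0.534 and 2.17 normalized CPM in layer A, with 0.112, 0.0462 and 0.791 in layer B and 0.319, 0.383 and 0.281 in layer C. Layer A replicate 2 lay below layer B replicate 3, so layers A and B overlapped. The log2 difference was 2.72 ± 0.86 (SE) against layer B (adjusted p = 0.0402) and 2.72 ± 0.87 against layer C (adjusted p = 0.0564). Without layer B replicate 3 the layers did not overlap, and the difference from layer B rose to 4.73 ± 0.85 (adjusted p = 0.00114). Against layer B the difference was 2.12 without layer A replicate 1, and the adjusted p was 0.188 in that fit, 0.0864 without layer A replicate 3, 0.122 and 0.0994 without layer B replicates 1 and 2, and 0.0557 and 0.0511 without layer C replicates 1 and 2. It was 0.0717 with only the 6 samples of layers A and B in the fit. Against layer C the gene passed without layer B replicate 3 (adjusted p = 0.00745), and also without layer A replicate 2 (0.0461) or layer B replicate 1 (0.0448) or 2 (0.0327). It passed there too by DESeq2 (0.0116), with no filter on low counts (0.0255) and with only the 6 samples of layers A and C (0.0112).

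Sema3a, the founding repellent of the family and a ligand of Nrp1, was the class 3 member that went the other way. It read 2.03, 3.81 and 6.93 normalized CPM in layer A, with 13.4, 9.56 and 26.1 in layer B and 28.7, 31.8 and 16.8 in layer C. Layer A was lowest without overlap, by 1.91 ± 0.47 (SE, adjusted p = 0.0111) from layer B and 2.56 ± 0.48 (adjusted p = 0.0049) from layer C on the log2 scale. Without layer A replicate 1 or 2 the adjusted p against layer B was 0.0557 and 0.0528. Sema3a is one of the candidates the study picked from these samples, so its direction is not independent evidence. Sema3f, the remaining class 3 member, was the lowest of the 31 genes per kilobase on the mean of all 9 samples. By layer this held only in layer A, as Sema3b, Sema3g and Plxnb3 were lower in layer B and Sema3b, Sema3g and Sema4c in layer C. Sema3f had 0 to 42 counts per sample, and its log2 difference from layer B was -0.68 ± 0.91.

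The 4 genes Sema3d, Sema3a, Sema3e and Sema3c lie in this order within 5346884 bases of chromosome 5 (GRCm38), from Sema3d (chr5:12383385-12588948) to Sema3c (chr5:17574281-17730268). Sema3a (chr5:13399309-13602565) sits between Sema3d and Sema3e (chr5:14025276-14256689), 810.36 and 422.71 kilobases away from them. Sema3c lies a further 3317.59 kilobases beyond Sema3e. All 4 are on the plus strand. Sema3a was lower in layer A than layer B, and the other 3 genes were higher.

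Of the 6 class 4 semaphorins, 2 passed between layers A and B, in opposite directions. Sema4g read 4.83, 4.81 and 5.34 normalized CPM in layer A, with 1.10, 2.33 and 1.27 in layer B and 4.44, 4.47 and 4.85 in layer C. Only layer B was low, by a log2 difference of 1.67 ± 0.39 (SE, adjusted p = 0.00847) from layer A, and layers A and C overlapped (log2 difference 0.12 ± 0.38). Sema4f, a transmembrane semaphorin found at synapses, read 2.54, 2.47 and 9.28 in layer A, with 12.4, 12.9 and 17.5 in layer B and 19.7, 12.6 and 15.4 in layer C. Every layer A sample lay below the others, by 1.55 ± 0.46 from layer B (adjusted p = 0.0303) and 1.70 ± 0.46 from layer C (adjusted p = 0.0266) on the log2 scale. The call depended on single libraries. Without layer A replicate 1 or 2 the adjusted p was 0.130 and 0.128 against layer B and 0.113 in both cases against layer C, without layer B replicate 3 it was 0.0528 against layer B, and without layer C replicate 1 or 3 it was 0.119 and 0.0518 against layer C. With only the 6 samples of layers A and B it was 0.0681. Without layer A replicate 3, the highest of its layer, the differences grew to -2.49 from layer B (adjusted p = 0.00167) and -2.65 from layer C (adjusted p = 0.00391). Sema4b did not overlap between layer A (5.59 to 7.68 normalized CPM) and layer B (2.10 to 4.16) but missed the threshold (adjusted p = 0.0552). It passed by DESeq2 (adjusted p = 0.0148), with the size factors of DESeq2 in edgeR (0.0489), with mitochondrial transcripts left out (0.0475) and without layer B replicate 2 (0.0369). Sema4a, Sema4c and Sema4d, the last a ligand of Plxnb1, had log2 differences of -0.55, -0.64 and 0.45 between layers A and B, none past the threshold, and 8.85% of the exon bases of Sema4c are shared with D430040D24Rik on the other strand.

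In classes 5 to 7, Sema5a and Sema6d passed between layers A and B and no member passed between layers A and C. Sema5a, which carries thrombospondin repeats, read 50.04, 29.7 and 25.4 normalized CPM in layer A, with 9.23, 7.62 and 16.4 in layer B and 13.2, 24.6 and 29.6 in layer C. Layer A lay above layer B without overlap, by 1.66 ± 0.40 on the log2 scale (adjusted p = 0.0101), and overlapped layer C. Sema6d, a ligand of type A plexins, was the most abundant ligand per kilobase of transcript on the mean of all 9 samples. By layer it led the ligands only in layer A, at 7.45 normalized CPM per kilobase, while Sema4f led in layer B (3.49) and Sema3a in layer C (4.35, against 4.25 for Sema6d). Sema6d read 73.6, 36.5 and 29.1 in layer A, with 19.0, 21.1 and 13.2 in layer B and 24.4, 27.0 and 27.8 in layer C, and layer A replicate 1 was far above the rest. The log2 difference from layer B was 1.38 ± 0.35 (adjusted p = 0.014) and that from layer C 0.81 ± 0.35 (adjusted p = 0.164). Without layer A replicate 1 the adjusted p against layer B was 0.0598 for Sema5a and 0.0952 for Sema6d.

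Sema6a came next among ligands per kilobase on the mean of all 9 samples, and lay above Sema6d in layer B (3.34 against 2.85). In layer C, at 2.97, it lay below Sema3a, Sema6d and Sema4f (4.35, 4.25 and 3.89). Sema6a read 36.2, 19.6 and 26.6 normalized CPM in layer A, with 20.8, 20.6 and 27.2 in layer B and 21.1, 28.6 and 11.4 in layer C. Its layers overlapped in every pair. Sema5b, Sema6b, Sema6c and Sema7a had log2 differences from -0.60 to 0.56 between layers A and B and from -0.62 to 0.41 between layers A and C, none past the threshold. Sema7a, a lipid-anchored ligand of Plxnc1 and integrins, ranged from 5.53 to 11.8 normalized CPM over all samples.

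**Figure D2:**
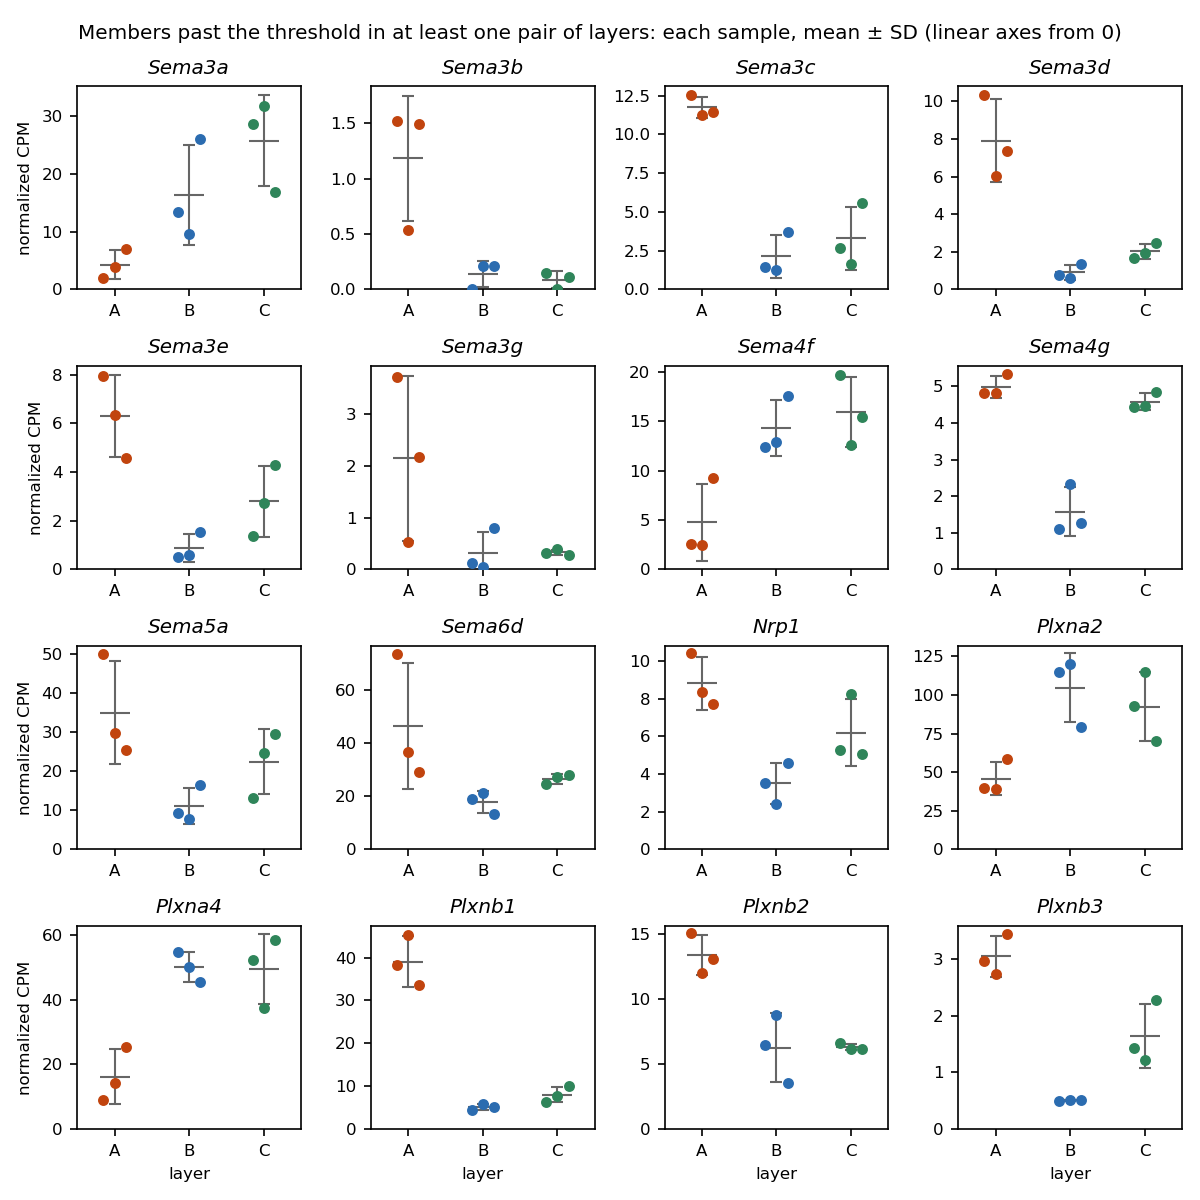
Normalized CPM of the 16 genes that passed between layers A and B in each sample of layers A, B and C, with the mean and SD (n = 3), each on a linear axis that starts at 0. Plxnb1 sits at 33.6 to 45.4 in layer A and at 4.38 to 9.93 elsewhere, while Plxna4 sits at 8.89 to 25.4 in layer A and at 37.4 to 58.6 elsewhere.

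All 3 type B plexins, which carry a GTPase-activating domain and couple to RhoA through exchange factors, were higher in layer A than layer B. Plxnb1 (chr9:109095389-109119917), the receptor of Sema4d, had the smallest p of the 31 genes in both comparisons. It read 38.2, 45.4 and 33.6 normalized CPM in layer A, with 4.38, 5.77 and 5.06 in layer B and 6.33, 7.78 and 9.93 in layer C. The 3 layers did not overlap, and layer A was 7.69-fold above layer B (log2 difference 2.94 ± 0.32 (SE), adjusted p = 0.000162) and 4.86-fold above layer C (2.28 ± 0.31, adjusted p = 0.00157). Both calls held under every alternative tried. An antisense gene, Gm7628, shares 2.97% of the exon bases of this transcript, and the libraries carry no strand.

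Plxnb3 (chrX:73757090-73772514), known from oligodendrocytes as a receptor of Sema5a, read 2.96, 2.74 and 3.44 normalized CPM in layer A, with 0.494, 0.508 and 0.520 in layer B and 1.42, 1.21 and 2.27 in layer C. The layers did not overlap. The log2 difference was 2.58 ± 0.45 (SE, adjusted p = 0.00137) against layer B and 0.88 ± 0.42 (adjusted p = 0.212) against layer C. The transcript read is annotated as a retained intron, and its coding counterpart gave 2.60 and 0.87. Plxnb2, found in many cell types, read 15.1, 12.02 and 13.1 in layer A, with 6.49, 8.80 and 3.54 in layer B and 6.60, 6.19 and 6.15 in layer C. Layer A lay above both others without overlap. The log2 difference was 1.09 ± 0.36 (adjusted p = 0.0481) against layer B and 1.08 ± 0.36 (adjusted p = 0.0645) against layer C. That call against layer B sat at the threshold. Its adjusted p ran from 0.0568 to 0.137 without layer A replicate 1, 2 or 3, layer B replicate 1 or 3, or layer C replicate 1 or 2. It was 0.0546 with no filter on low counts, 0.0724 with only the 6 samples of layers A and B and 0.0584 with counts summed by gene. Against layer C it was 0.0118 without layer B replicate 3, 0.0225 by DESeq2, 0.0483 with 10 counts or more asked of all 9 samples and 0.0228 with only the 6 samples of layers A and C.

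Among the 4 type A plexins, which pair with neuropilins or bind class 6 semaphorins directly, Plxna2 and Plxna4 were lower in layer A than layers B and C. Plxna2 (chr1:194619825-194816869), a receptor of Sema6a, was the most abundant of the 31 genes per kilobase in layers B and C (9.49 and 8.38 normalized CPM), while in layer A, at 4.15, it lay below Sema6d, Plxnc1 and Plxnb1. It read 39.6, 39.3 and 58.5 normalized CPM in layer A, with 115, 120 and 79.0 in layer B and 92.8, 115 and 69.9 in layer C. Layer A lay below the others without overlap, by 1.19 ± 0.31 (SE, adjusted p = 0.0141) from layer B and 1.01 ± 0.30 (adjusted p = 0.0432) from layer C on the log2 scale. Against layer B the adjusted p was 0.0542 to 0.0702 without layer A replicate 1 or 2 or layer B replicate 1 or 2. Against layer C it was 0.0507 to 0.161 without layer A replicate 1 or 2, layer B replicate 1 or 2, or layer C replicate 1 or 2.

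Plxna4 (chr6:32144268-32588192), which serves as a receptor for Sema3a with Nrp1, read 8.89, 14.1 and 25.4 normalized CPM in layer A, with 54.6, 50.2 and 45.4 in layer B and 52.2, 37.4 and 58.6 in layer C. Layer A was 3.08-fold below layer B (log2 difference -1.62 ± 0.36 (SE), adjusted p = 0.0063) and 3.04-fold below layer C (-1.61 ± 0.36, adjusted p = 0.0114), with no overlap. Without layer A replicate 2 or layer C replicate 1 the adjusted p against layer C was 0.0563 and 0.0586. Plxna1 and Plxna3 did not pass in either comparison, with log2 differences of -0.40 and -0.29 from layer B and -0.88 and -0.07 from layer C. Plxna1 passed against layer C without layer B replicate 3 (adjusted p = 0.0342), and 10.7% of its exon bases are shared with the antisense gene Gm26811.

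Plxnc1, the receptor of Sema7a, ranked below Plxna2 alone per kilobase in layers B and C, and below Sema6d alone in layer A. It read 43.4, 33.7 and 24.7 normalized CPM in layer A, with 47.6, 43.6 and 44.5 in layer B and 42.7, 54.3 and 31.9 in layer C. Its log2 difference of -0.42 ± 0.30 (SE) between layers A and B did not pass, nor did -0.34 ± 0.30 between layers A and C. Plxnd1, the receptor of Sema3e, ranged from 17.7 to 26.5 in layer A, with 17.8 to 50.2 in layer B and 18.2 to 29.5 in layer C. Its difference from layer B was -0.69 ± 0.37 (adjusted p = 0.237). Without layer B replicate 3, the lowest of that layer for this gene, it was -0.96 with an adjusted p of 0.0317.

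The neuropilins pointed in opposite directions. Nrp1, the co-receptor of Sema3a and of vascular endothelial growth factor, read 10.4, 8.35 and 7.71 normalized CPM in layer A, with 3.50, 2.42 and 4.56 in layer B and 5.30, 8.23 and 5.05 in layer C. Layers A and B did not overlap, and the log2 difference was 1.33 ± 0.37 (SE, adjusted p = 0.0214), while layers A and C overlapped (0.52 ± 0.36). Without layer A replicate 1, layer B replicate 1 or layer B replicate 2 the adjusted p against layer B was 0.0791, 0.0687 and 0.0834. Nrp2, a co-receptor of Sema3f, ranged from 17.0 to 19.1 in layer A, with 20.9 to 34.9 in layer B and 20.3 to 22.7 in layer C. It was lower in every layer A sample than in every other sample, by 0.73 ± 0.29 from layer B (adjusted p = 0.104). Without layer B replicate 3 this difference was 0.87 and passed (adjusted p = 0.0286). In bulk tissue of this kind, fewer cells of a type and less RNA per cell cannot be told apart.

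Summed per kilobase of transcript, ligands outweighed receptors in layer A and receptors outweighed ligands in replicates 1 and 2 of layer B. The log2 ratio of receptors to ligands was -0.55, -0.22 and -0.25 in layer A, with 0.71, 0.70 and -0.15 in layer B and 0.02, 0.19 and -0.18 in layer C. Layer A was below both other layers in every sample, with means of -0.34 ± 0.18 (SD, n = 3), 0.42 ± 0.50 and 0.01 ± 0.18 in layers A, B and C. Layer B replicate 3 lay within the range of layer C. Without division by length all 3 means were above 0, at 0.13, 0.72 and 1.21 in layers A, C and B.

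By class, type A plexins summed to 5.37, 6.27 and 8.93 normalized CPM per kilobase in layer A, with 16.8, 17.2 and 11.9 in layer B and 14.7, 15.5 and 13.4 in layer C. Type B plexins summed to 7.21, 7.54 and 6.45 in layer A, with 1.59, 2.10 and 1.21 in layer B and 1.98, 2.05 and 2.46 in layer C. The plexin sums of layer A thus did not overlap those of the other layers in either type, in opposite directions. Class 3 ligands summed to 4.88 to 6.69 in layer A, with 2.21 to 5.77 in layer B and 5.07 to 6.52 in layer C. Within this class Sema3a was higher in layers B and C than in layer A. The other members past the threshold were lower in layer B than in layer A. Of these, Sema3b, Sema3c and Sema3d were also lower in layer C, while Sema3e and Sema3g did not pass against layer C. Class 4 ligands, 6.07 to 9.33 in layer A, overlapped layer B (8.23 to 9.94) and layer C (7.88 to 10.5).

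**Figure D3:**
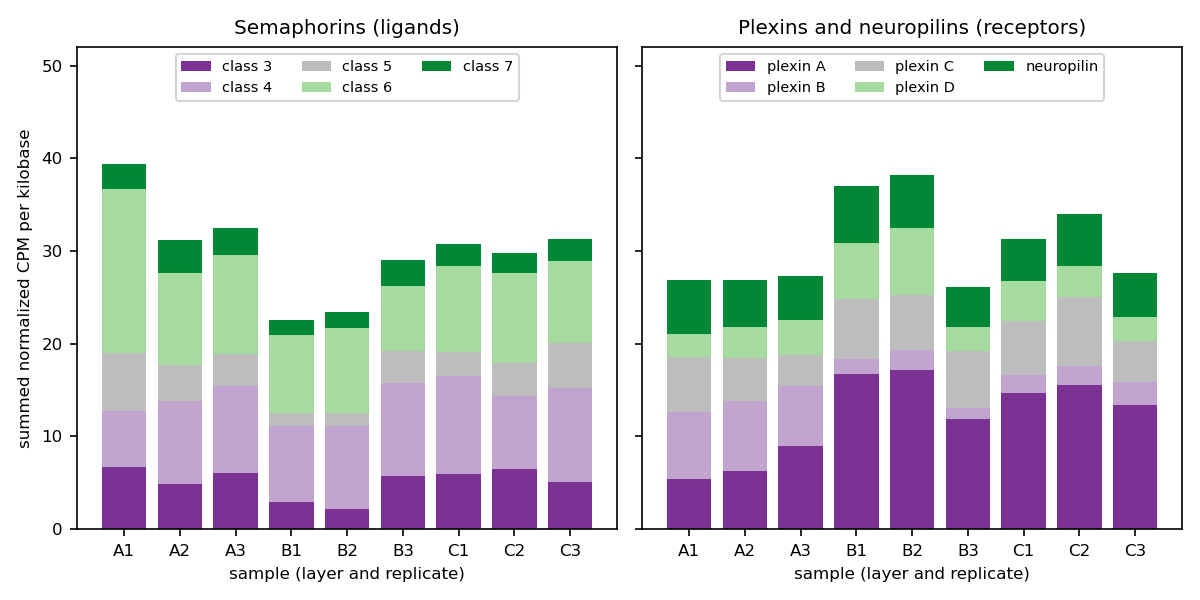
Summed normalized CPM per kilobase of transcript in each of the 9 samples, for semaphorins by class (left) and for plexins and neuropilins by type (right), as stacked bars from 0. Type A plexins take 5.37 to 8.93 in layer A and 11.9 to 17.2 elsewhere, and type B plexins 6.45 to 7.54 in layer A and 1.21 to 2.46 elsewhere.

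Between layers B and C, 0 of the 31 genes passed with edgeR, as did 0% of all tested transcripts, among which the smallest adjusted p was 0.0698. At an unadjusted p under 0.05 there were 7: Sema3d, Sema3e, Sema4g, Sema5a, Nrp1, Plxnb1 and Plxnb3, all lower in layer B, against 4.11% of all tested transcripts in either direction. The smallest adjusted p among the 31 was 0.541, for Sema4g and Plxnb3, whose log2 differences were -1.55 ± 0.39 (SE) and -1.70 ± 0.44. Sema3d, Sema4g, Nrp1, Plxnb1 and Plxnb3 among these 7, and Sema6d and Plxna1 among the rest, had no overlap between the 2 layers. The 7 were picked by p on the same values, and the share of all transcripts without overlap was not computed. Nor were the unadjusted shares lower in layer B alone or over the highest transcripts of protein-coding genes. DESeq2 called 2 of the 31, Sema4g (adjusted p = 0.0256) and Plxnb3 (adjusted p = 0.0426), as it did 0.261% of the 47546 transcripts to which it gave an adjusted p.

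Of 37 genes that act with or below plexins and neuropilins, 12 passed between layers A and B (8 higher in layer A, 4 lower). Between layers A and C 11 passed (6 and 5). The shares over the highest transcripts of protein-coding genes were 14.1% higher and 8.24% lower against layer B and 10.1% and 5.93% against layer C. Those over all tested transcripts are given above. The median log2 differences of the 37 genes were -0.10 and -0.20, against -0.16 and -0.03 over the highest transcripts of protein-coding genes. Between layers B and C 0 passed by edgeR or DESeq2. Without layer C replicate 1 the count against layer C was 1, and without layer A replicate 2 it was 7. Without layer B replicate 3 the counts were 14 and 13. In the groups, 5 of 9 co-receptors passed against layer B, 1 of 5 collapsin response mediator proteins, 2 of 3 MICAL oxidoreductases, 2 of 6 kinases, 2 of 8 GTPases and actin regulators and 0 of 6 exchange factors and adaptors.

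The co-receptors split. L1cam, an adhesion molecule needed for Sema3a signalling through Nrp1, was at 21.8 ± 7.71 normalized CPM (SD, n = 3) in layer A, with 77.8 ± 8.91 in layer B and 88.6 ± 24.9 in layer C. Against layer B the log2 difference was -1.83 ± 0.33 (SE, adjusted p = 0.00175). Higher in layer A than layer B were Itga1 and Itgb1, the integrin chains that bind Sema7a, by 3.70 ± 0.51 (adjusted p = 0.000318) and 1.83 ± 0.31 (adjusted p = 0.00112), Kdr, the receptor of vascular endothelial growth factor, by 2.88 ± 0.61 (adjusted p = 0.00504), and Erbb2, a partner of Plxnb1, by 2.5 ± 0.56 (adjusted p = 0.00652). Outside layer A 3 of these genes were rare. Mean normalized CPM in layers A, B and C was 7.42, 0.565 and 1.61 for Itga1 and 3.97, 0.538 and 0.787 for Kdr. For Erbb2 it was 1.55, 0.274 and 0.267. All 5 co-receptors also passed against layer C with all samples in the fit.

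Downstream, Crmp1, which relays Sema3a signals to the cytoskeleton, was at 18.1 ± 4.47 normalized CPM (SD, n = 3) in layer A and 47.8 ± 0.978 in layer B (log2 difference -1.40 ± 0.30 (SE), adjusted p = 0.00549). Pak1, a kinase of the actin pathway, was at 94.5 ± 13.9 and 230.0 ± 28.4 (-1.28 ± 0.28, adjusted p = 0.00536). The MICAL enzymes, which oxidize actin under plexins, differed in direction: Mical1 was higher in layer A by 3.06 ± 0.67 (adjusted p = 0.00572) and Mical2 lower by 1.01 ± 0.33 (adjusted p = 0.0467). Mical1 was rare outside layer A, with means of 3.29, 0.394 and 0.343 normalized CPM in layers A, B and C. It is another of the study's candidates from these samples, so its direction is not independent evidence either. Rras, a GTPase switched off by plexins, was higher by 2.51 ± 0.63 (adjusted p = 0.0128). These 5 genes passed against layer C too, with all samples in the fit.

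Markers of other cell types moved with layer A. Markers are counted here and below as higher or lower at an adjusted p under 0.05 (edgeR). By the same rule, 14.1% of the highest transcripts of protein-coding genes were higher and 8.24% lower in layer A than layer B. Against layer C the shares were 10.1% and 5.93%. All 6 astrocyte, 6 endothelial, 5 pericyte and smooth muscle and 6 meningeal fibroblast markers and all 5 oligodendrocyte precursor markers were higher in layer A than layer B, as were 4 of 6 microglial markers. Against layer C, 6 of 6 astrocyte, 5 of 6 endothelial, 5 of 5 pericyte, 6 of 6 meningeal, 2 of 5 precursor and 4 of 6 microglial markers were higher in layer A. Summed per kilobase, endothelial markers were at 25.5 to 34.3 normalized CPM in layer A, with 1.91 to 5.52 in layer B and 3.66 to 6.52 in layer C. Astrocyte markers were at 237 to 372, 19.9 to 62.5 and 40.5 to 56.3. Pericyte and smooth muscle markers were at 50.4 to 84.6, 3.78 to 13.4 and 10.9 to 15.4. Meningeal markers were at 9.37 to 25.6, 0.224 to 1.53 and 0.277 to 0.859. Precursor markers were at 22.7 to 28.7, 4.30 to 9.77 and 9.82 to 15.01, and microglial markers at 30.3 to 38.6, 4.43 to 9.74 and 10.2 to 15.7. In each of these 6 lists the layer A samples lay above all others.

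Of the 6 glutamatergic neuron markers, 1 was higher and 2 lower in layer A than layer B, and 1 higher and 3 lower than in layer C. Their sum per kilobase was 502 to 863 in layer A, with 298 to 308 in layer B and 300.1 to 392 in layer C. Here too the layer A samples lay above all others, as in the 6 lists above. Slc17a7, the vesicular glutamate transporter that defines these neurons, was at 70.6 to 142 normalized CPM in layer A, with 165 to 314 in layer B and 118 to 238 in layer C. Mature oligodendrocyte markers were summed at 101 to 235 per kilobase in layer A, with 40.7 to 170.2 in layer B and 96.4 to 445 in layer C, and GABAergic markers at 42.6 to 79.2, 15.6 to 147 and 95.4 to 139. Of the oligodendrocyte list 1 of 6 was higher in layer A than layer B and 0 of 6 differed from layer C, and of the GABAergic list 1 of 6 was higher than in layer B and 2 of 6 lower than in layer C. No defining marker was at 0 in any sample. The part of these cell types, or of the mitochondrial share, in the differences of the semaphorin genes was not tested.

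**Figure D4:**
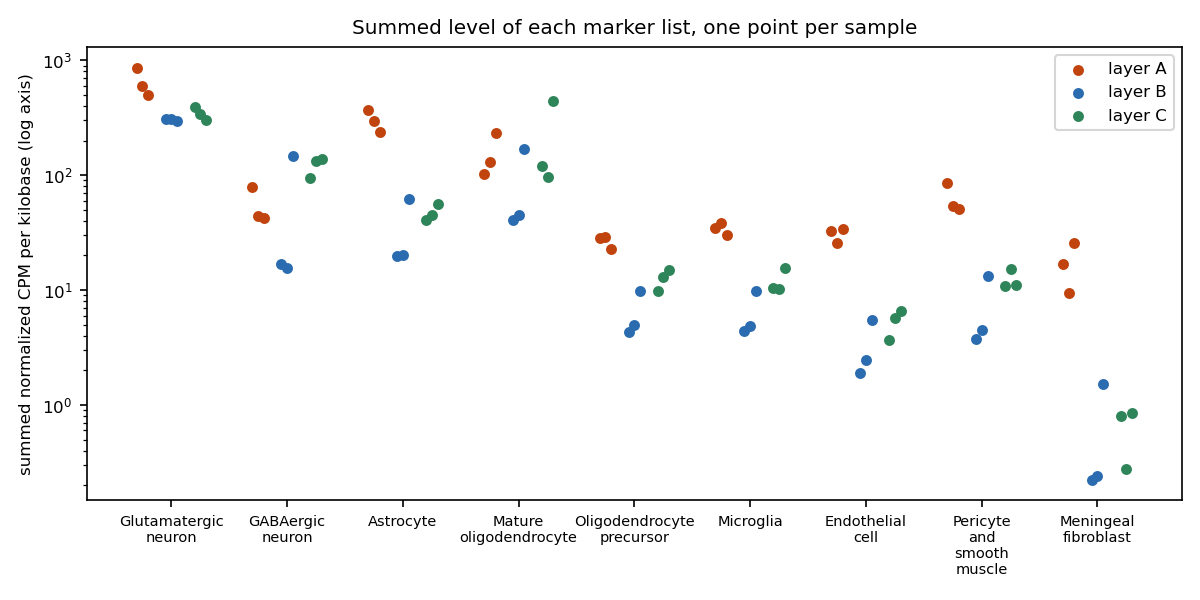
Summed normalized CPM per kilobase of each list of cell type markers in each sample of layers A, B and C, on a log axis. Layer A samples lie above all others for the glutamatergic neuron, astrocyte, oligodendrocyte precursor, microglial, endothelial, pericyte and meningeal lists. Layer B replicate 3 (147) lies far above replicates 1 and 2 (16.9 and 15.6) for the GABAergic list.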

How the data were processed

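RNA of laser-captured piriform cortex layers was measured by RNA-seq in 9 samples. Per the study's methods and the processing notes, the authors amplified the RNA (Ovation), prepared strand non-specific libraries, mapped the paired-end reads on mm10 with Bowtie and list HTSeq 0.5.3 and bcl2fastq 1.8.4 among their tools. They deposited raw counts per Ensembl transcript. Reads shared between transcripts can count for several of them: 12 of the 31 genes had another transcript within 10% of the highest. Reads carried no molecular identifiers, so the floor of 3 counts covers counting error only.

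Of 95533 transcripts, 82807 (86.7%) were found in GENCODE release M21 (GRCm38), which gave names, lengths and positions. Counts with at least 10 reads in at least 3 samples (56416 transcripts) were TMM-normalized and compared by the quasi-likelihood F-test of edgeR 4.0.16 (R 4.3.3) over all 9 samples with no covariate and Benjamini-Hochberg adjustment (threshold 0.05). Standard errors are the log2 difference over the square root of F. The fits were tested on simulated counts. Alternatives were DESeq2 1.42.0, its size factors, 2 other filters, the replicate number as a block, the 6 samples of the layers compared, counts summed by gene, the transcript with the highest mean CPM, no mitochondrial transcripts, each sample left out, and, chosen after seeing the data, layer B replicate 3 left out with the block. Values in every sample are given for genes past the threshold in any pair and for the 2 ligands and 2 receptors highest per kilobase. Of the partners, the 10 with the smallest p among those past the threshold against layer B or C are named. The members and lists were chosen with earlier results of these data known.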

Additional observations from a re-analysis of the deposited data

How the results depend on the processing

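Of the 39 log2 differences with an unadjusted p under 0.05, 0 changed sign under the alternatives run, and of the 24 differences past the threshold 9 kept their call throughout: Sema3c, Sema3d, Sema3e, Sema4g, Plxna4, Plxnb1 and Plxnb3 between layers A and B, and Sema3a and Plxnb1 between layers A and C. With each sample left out in turn, the number of the 31 genes past the threshold ran from 7 to 16 between layers A and B, from 2 to 11 between layers A and C and from 7 to 18 for any difference among the 3 layers, against 16, 8 and 14 with all samples. The partner genes ran from 9 to 14 and from 1 to 13, against 12 and 11. Each of these fits has fewer samples. DESeq2 called 2 members between layers B and C. Without division by length the log2 ratio of receptors to ligands moved to 0.13, 1.21 and 0.72 in layers A, B and C.

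Replicate 3 had the highest total count of its layer in all 3 layers, at 43705625, 44224318 and 76471683 in layers A, B and C. The deviations of the samples from their layer means showed no clear pairing by replicate number. Of 9 same-numbered pairs, 4 had deviations correlated above 0.1 (range -0.19 to 0.24), and 2 of 9 samples correlated best with their own number. These are deviations from layer means of 3 samples, where 1 outlying library can hide a pairing, so the check cannot exclude it. With the replicate number as a block, 15, 7 and 0 members passed in the 3 pairs of layers and 13 for any difference, and Sema3b against layer B (adjusted p = 0.0647, edgeR) and Plxna2 against layer C (adjusted p = 0.073) missed the threshold. Depth limits the rarest members, Sema3b, Sema3f, Sema3g, Sema4c and Sema6c, which fell below 10 counts in at least 1 sample.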
